A study of Mus musculus with 6 samples.

Results

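The Reg genes encode small secreted proteins with a C-type lectin fold, and 6 of them are described here, by symbol: Reg1, Reg2, Reg3a, Reg3b, Reg3d and Reg3g. The family was selected on its measured TPM in these same libraries, known from an earlier analysis. Of these 6 genes, 3 had values among the 22556 genes listed, namely Reg3a, Reg3d and Reg3g, while Reg1, Reg2 and Reg3b were not analysed here. RNA-sequencing values of the pancreas came from 6 wild-type male C57BL/6 mice, 2 per group, with an age of 8 weeks in the labels and of 8 to 10 weeks in the methods. Saline mice received saline. AP mice received 10 hourly injections of caerulein, which binds the receptor for cholecystokinin on acinar cells and so causes acute pancreatitis (AP). PolyI:C-pretreated AP mice, for short polyI:C + AP mice, received in addition polyI:C, a synthetic double-stranded RNA, 1 or 8 h before the first caerulein injection, and which interval applies to the sequenced mice is not named. The pancreas was removed 24 h after that injection. No mice given polyI:C without caerulein were analysed here.

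Reg proteins are made by acinar cells of the pancreas and by the epithelium of the intestine, where Reg3g is known to act against Gram-positive bacteria. In the pancreas, several of the genes are known for a low level at rest and a strong rise in inflammation, and Reg3b was first described as pancreatitis-associated protein. Cytokines that signal through STAT3, such as IL-6 and IL-22, are known inducers of the family, and EXTL3 has been described as a receptor for Reg proteins.

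All 6 genes lie in one run of 98216 bases on mouse chromosome 6, from 78370657 to 78468872 (GRCm38). Reg3a (ENSMUSG00000079516) covers 78380709 to 78383827 on the plus strand. Reg3d (ENSMUSG00000068341) covers 78375874 to 78378865 on the minus strand, next to Reg3a and transcribed away from it. Reg3g (ENSMUSG00000030017) covers 78466269 to 78468872 on the minus strand, at the far end of the run. The start sites of 7 protein-coding genes lie in the run or within 1 Mb on either side of it, 6 of them being the Reg genes. The other is Ctnna2, an alpha-catenin gene, which stayed between 0 and 0.347 TPM in the 6 libraries. The 3 measured genes have 6 exons each, with 525 coding bases in Reg3a and Reg3d and 522 in Reg3g. Their coding sequences were 72.8% identical between Reg3a and Reg3g, 64.8% between Reg3a and Reg3d, and 65.5% between Reg3d and Reg3g. None of the 726, 782 and 2290 stretches of 100 bases from the transcripts of Reg3a, Reg3d and Reg3g occurred in a transcript of another gene, so that 100 bases of exact sequence tell the genes apart.

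The promoters are shown because the 3 genes lie in the same run and had different patterns over the groups. Each window holds the 250 bases before and the 50 bases from the start site (RefSeq, GRCm38.p6), with Reg3a at chr6:78380459-78380758 on the plus strand, Reg3d at chr6:78378816-78379115 on the minus strand and Reg3g at chr6:78468825-78469124 on the minus strand. Capitals mark the longest word found in all 3 windows.
Reg3a: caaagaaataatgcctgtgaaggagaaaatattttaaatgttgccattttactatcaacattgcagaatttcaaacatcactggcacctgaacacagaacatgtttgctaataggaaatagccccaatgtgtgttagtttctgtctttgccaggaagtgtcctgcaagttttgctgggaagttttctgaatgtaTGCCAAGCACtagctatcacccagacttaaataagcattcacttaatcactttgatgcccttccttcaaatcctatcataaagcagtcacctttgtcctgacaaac
Reg3d: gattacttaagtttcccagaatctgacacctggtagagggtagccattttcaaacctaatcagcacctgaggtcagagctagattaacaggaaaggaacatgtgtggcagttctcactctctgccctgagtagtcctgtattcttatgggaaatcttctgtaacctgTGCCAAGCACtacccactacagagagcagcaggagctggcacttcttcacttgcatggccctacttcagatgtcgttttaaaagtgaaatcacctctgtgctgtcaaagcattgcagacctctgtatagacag
Reg3g: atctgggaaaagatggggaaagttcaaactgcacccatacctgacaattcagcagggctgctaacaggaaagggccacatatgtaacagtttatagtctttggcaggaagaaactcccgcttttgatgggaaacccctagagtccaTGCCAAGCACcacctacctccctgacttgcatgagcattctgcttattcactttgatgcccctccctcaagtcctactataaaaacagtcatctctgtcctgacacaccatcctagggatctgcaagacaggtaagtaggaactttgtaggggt

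The shared word TGCCAAGCAC, of 10 letters, occurred once in each window. It began 56 bases upstream of the start site in Reg3a, 83 bases in Reg3d and 104 bases in Reg3g. It was present on either strand in 32 of 32851 RefSeq promoter windows of the same length (0.0974%), the windows of these 3 genes included. As the word was picked for being shared by these 3 windows, nothing is read from this share. The longest words shared by 2 of the windows were TCACTTTGATGCCC for Reg3a and Reg3g, TGCCAAGCACTA for Reg3a and Reg3d, and TAACAGGAAAGG for Reg3d and Reg3g. Further short motifs were looked for on both strands, chosen after the sequences had been seen. A STAT-type motif, TTCNNNGAA, was found in Reg3d, 238 bases upstream, and in 8.30% of all windows. The motif TGGGAA, known from RBPJ sites, had 1 match in Reg3a and 2 each in Reg3d and Reg3g, of which the match at 238 in Reg3d overlaps the STAT-type motif, and occurred in 25.6% of all windows. CACCTG, an E-box, had 1 match in Reg3a and 2 in Reg3d, and occurred in 20.2% of all windows. TATAAA had 2 matches in Reg3g, at 161 and 27 bases upstream, and occurred in 13.6% of all windows. The core of interferon response elements, spelled as GAAA, any 2 bases and GAAA again, was in none of the 3 windows and in 3.44% of all. These matches describe letters in these windows.

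Values were deposited as TPM, a level per length of transcript that is scaled to 1000000 in every library. The reads behind each library were estimated at 3297153 to 10848327 from the spacing of low values, with the 2 saline libraries the shallowest. The 12 intestinal epithelial markers summed to 24.3 to 46.5 TPM in 5 libraries, against 3985 TPM in the library of polyI:C + AP mouse 2, where each of the 12 had its highest value. Fold changes of the Reg genes in that group are therefore given with and without this library. Markers of the pancreas were present in every library: the 12 islet markers had values and summed to 1351 to 2392 TPM, and the 9 acinar markers with values, of 28 listed, summed to 24411 to 49072 TPM. Bulk RNA cannot tell fewer cells of a type from less RNA per cell. The labels give no litter or cage, so the errors describe these samples only. SDs are the spread between the 2 mice of a group, while SEs of fold changes also draw on the variance of other genes.

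Reg3a and Reg3g were highest in the polyI:C + AP mice, and Reg3d was lowest in the AP mice. After polyI:C, Reg3d lay below its saline level but closer to it than to its AP level. Reg3a measured 2907 and 738 TPM in the saline mice, 2829 and 2387 TPM in the AP mice, and, after polyI:C, 19166 and 22317 TPM. Saline and AP values of Reg3a overlapped, while both polyI:C + AP mice lay above the other 4. The level of Reg3d was 4415 and 4477 TPM in the saline mice, 825 and 774 TPM in the AP mice, and, after polyI:C, 3598 and 3758 TPM. No 2 groups overlapped for Reg3d, with saline highest, polyI:C + AP second and AP lowest. For Reg3g, 617 and 79.5 TPM were measured in the saline mice, 1623 and 1493 TPM in the AP mice, and, after polyI:C, 4528 and 6056 TPM. The 3 groups did not overlap for Reg3g, in the order saline, AP and polyI:C + AP. How many of all genes had groups without overlap was not counted.

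**Figure D1:**
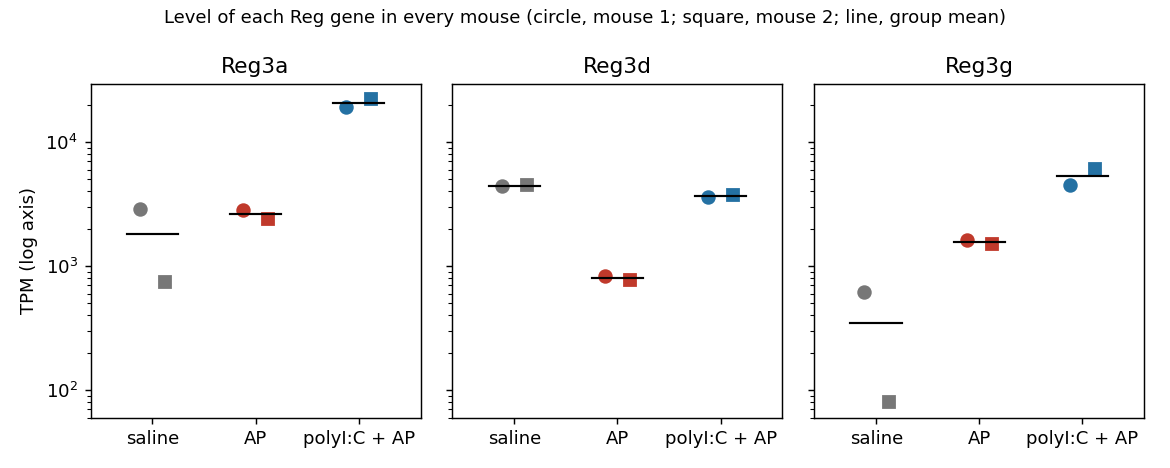
TPM on a log axis for Reg3a, Reg3d and Reg3g in each mouse, with the circle for mouse 1, the square for mouse 2 and a line at the mean of the group. Reg3a stands at 19166 and 22317 TPM in the polyI:C + AP mice, Reg3d has its lowest values, 825 and 774 TPM, in the AP mice, and the 2 saline mice lie far apart for Reg3a and Reg3g but not for Reg3d.

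As group means, Reg3a was at 1823 ± 1534 TPM in saline mice, 2608 ± 313 TPM in AP mice and, after polyI:C, 20742 ± 2228 TPM (SD, n = 2). Reg3d was at 4446 ± 44.4, 799 ± 36.2 and 3678 ± 113 TPM in the same order. Means of Reg3g were 348 ± 380, 1558 ± 92.1 and 5292 ± 1080 TPM. Only 9 of 28 acinar markers and 3 of the 6 Reg genes had values, so ranks and shares here are among the genes listed. Among these 22556 genes, Reg3a had rank 2 in both polyI:C + AP libraries. Its rank was 32 and 36 in the AP libraries and 33 and 133 in the saline libraries. The rank of Reg3d was 23 in both saline libraries, 115 and 129 in the AP libraries, and 25 and 24 after polyI:C. Reg3g stood at rank 154 and 1476 in the saline libraries, 52 and 61 in the AP libraries, and 21 and 15 after polyI:C. Together the 3 genes made up 0.794% and 0.530% of the listed TPM in saline mice, 0.528% and 0.465% in AP mice, and 2.73% and 3.21% in polyI:C + AP mice.

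Ratios between the genes of one library do not depend on the scaling between libraries. Reg3a was 0.659 and 0.165 times Reg3d in the saline mice, 3.43 and 3.09 times in the AP mice, and 5.33 and 5.94 times in the polyI:C + AP mice. The group order of this ratio held without overlap, from saline to AP to polyI:C + AP. Reg3g was 0.140 and 0.0178 times Reg3d in the saline mice, 1.97 and 1.93 times in the AP mice, and 1.26 and 1.61 times in the polyI:C + AP mice. This ratio was highest in the AP mice, again without overlap. Reg3a was 4.71 and 9.28 times Reg3g in the saline mice, 1.74 and 1.60 times in the AP mice, and 4.23 and 3.68 times in the polyI:C + AP mice, a ratio that was lowest in AP. The level of Reg3g against the other 2 genes rests on the length used for its TPM, which is not given in the sources used here. The exons of all its annotated transcripts cover 2114 bases and its coding transcript 771 bases, a factor of 2.74, while for Reg3a and Reg3d both lengths are equal. This factor cancels when libraries are compared.

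The first comparison, of AP with saline mice, addresses what caerulein changes in the pancreas. Reg3d was 5.56-fold lower in AP mice (log2 fold change -2.48, SE 0.085). Reg3g was 7.0-fold higher (2.81, SE 0.82), and Reg3a differed by 1.77-fold (0.83, SE 0.56) with overlapping groups. Fold changes are estimates from a limma fit on log2(TPM + 0.5) over the 6 libraries and the 16814 genes whose mean reached 1 TPM. To pass the threshold, a gene needed an adjusted p (Benjamini-Hochberg) of no more than 0.05 and a change of 2-fold or more. Reg3d passed as lower and Reg3g as higher, 2 of 3 members, beside 22.2% of all genes tested. As the family was selected with these values known, they are a description with no test, and nothing is read from this count. Reg3d passed under every alternative setting tried. Reg3g did not pass under median-of-ratios scaling or 3 of the other settings, nor without AP mouse 1, AP mouse 2, polyI:C + AP mouse 1 or polyI:C + AP mouse 2, which left 1 of 3 members, while without saline mouse 1 all 3 passed. All genes tested had a median log2 fold change of 0.45 in this comparison and of 0.06 after median-of-ratios scaling, under which Reg3d stood at -2.91, Reg3g at 2.38 and Reg3a at 0.40.

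The estimate for Reg3a and Reg3g depended on which saline mouse was used. Without saline mouse 2, the log2 fold change of Reg3a in AP against saline mice was -0.16, and without saline mouse 1 it was 1.82. For Reg3g the values were 1.33 and 4.28, and for Reg3d they were -2.47 and -2.49. The 2 saline mice differed by 1.98 on the log2 scale for Reg3a and by 2.95 for Reg3g, with saline mouse 1 higher in both, but by 0.02 for Reg3d. Of the 7375 protein-coding genes with at least 10 TPM in these mice, 22 (0.298%) differed as much as Reg3a and 9 (0.122%) as much as Reg3g, and the median difference was 0.20. The AP mice differed by 0.25, 0.09 and 0.12 for Reg3a, Reg3d and Reg3g, beside a median of 0.12 over 8598 genes. The polyI:C + AP mice differed by 0.22, 0.06 and 0.42, beside a median of 0.13 over 8791 genes. The lowest value, that of Reg3g in saline mouse 2, rests on about 200 estimated reads, against 1905 in saline mouse 1, both computed with the length of 2114 bases.

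The second comparison, of polyI:C + AP with AP mice, addresses what the pretreatment changes in AP. Reg3a was 7.96-fold higher after polyI:C (log2 fold change 2.99, SE 0.56), Reg3d was 4.60-fold higher (2.20, SE 0.085) and Reg3g was 3.36-fold higher (1.75, SE 0.82). These SEs pool the spread within all 3 groups, the saline mice included, and limma draws each gene's variance toward that of other genes. With only the 4 libraries compared, the SEs were 0.186 for Reg3a, 0.0796 for Reg3d and 0.194 for Reg3g. The groups did not overlap for any of the 3 genes, and the share of all genes without overlap was not counted. An exact permutation test of 2 against 2 libraries cannot go below p = 0.333, so nothing is read from this. Reg3d passed the threshold as higher, 1 of 3 members, beside 0.845% of all genes tested in either direction and 0.440% as higher. The median over all genes tested was 0.04. Without polyI:C + AP mouse 2, the library with intestinal markers, the log2 fold changes were 2.88 for Reg3a, 2.17 for Reg3d and 1.54 for Reg3g, and without mouse 1 of that group they were 3.10, 2.23 and 1.96. No member passed in limma without polyI:C + AP mouse 2, without AP mouse 1 or without AP mouse 2, while 2 of 3 had a 2-fold change at an unadjusted p no higher than 0.05 in each of these fits. Over all genes, 0 passed in these 3 fits, against 609, 712 and 647 genes at the unadjusted p. Reg3a passed beside Reg3d without saline mouse 1, without saline mouse 2, when a mean of 5 TPM was asked for and with only the 4 libraries compared, which made 2 of 3.

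The third comparison set polyI:C + AP against saline mice. Reg3a was 14.1-fold higher (3.82, SE 0.56), Reg3g was 23.6-fold higher (4.56, SE 0.82) and Reg3d was 1.21-fold lower (-0.27, SE 0.085). Reg3a and Reg3g passed the threshold as higher, 2 of 3 members, beside 19.9% of all genes tested in either direction and 16.9% as higher. The median over all genes tested was 0.48. After median-of-ratios scaling, where this median was 0.06, Reg3d stood at -0.73. Without polyI:C + AP mouse 2 the log2 fold changes were 3.71 for Reg3a, 4.35 for Reg3g and -0.31 for Reg3d. Without polyI:C + AP mouse 1 they were 3.93, 4.77 and -0.24, and with either mouse left out fewer members passed. The AP mice enter the first 2 comparisons and the saline mice the first and the third, so the 3 estimates of a gene are not independent of each other.

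**Figure D2:**
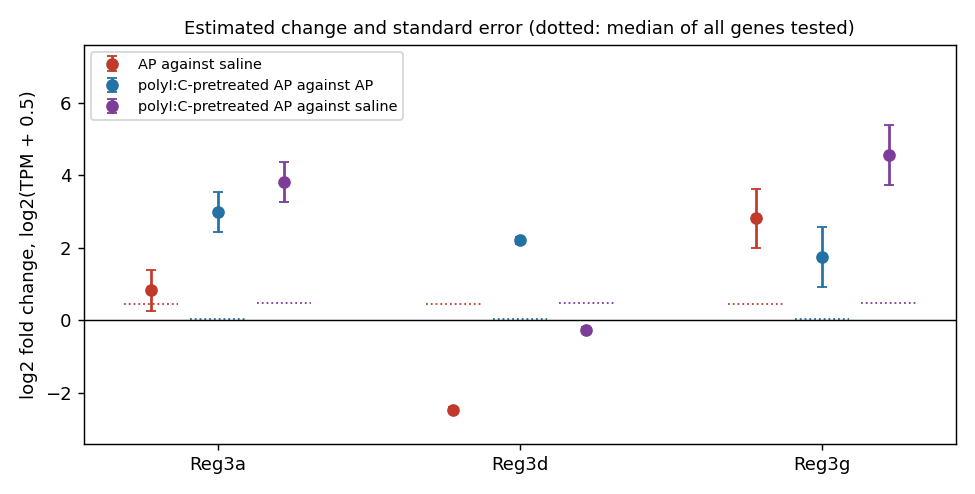
Log2 fold change of Reg3a, Reg3d and Reg3g on the log2(TPM + 0.5) scale in the 3 comparisons, with the standard error of the fit as bars and dotted lines at the median of all genes tested. Reg3d has small errors and changes sign between AP against saline (-2.48) and polyI:C + AP against AP (2.20), while Reg3g has the widest errors (0.82).

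The level of intestinal transcripts in polyI:C + AP mouse 2 is set beside the Reg genes because the intestine makes Reg proteins too. Fabp1, a fatty acid binding protein of enterocytes, measured 1430 TPM in this library and at most 3.35 TPM in the other 5. Sis, the brush border enzyme sucrase-isomaltase, measured 323 TPM against at most 0.491 TPM. Apoa4, Cdx1 and Cdx2 were listed at 0 in the other 5 libraries. The number of the 12 markers at 0 was 4 to 6 in those libraries and 0 in this one. In polyI:C + AP mouse 1, where the markers summed to 24.3 TPM, Reg3a was still at 19166 TPM, Reg3g at 4528 TPM and Reg3d at 3598 TPM. Of the 3 genes, Reg3g differed most in proportion between these 2 mice, and Reg3a most in TPM. The share of intestinal RNA in the 22317 TPM of Reg3a in mouse 2 was not tested.

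**Figure D3:**
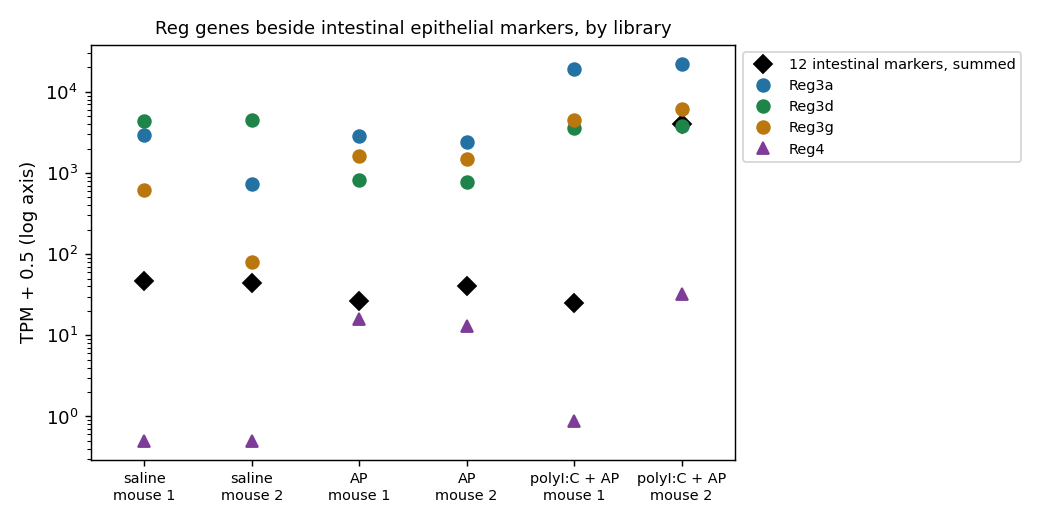
TPM plus 0.5 on a log axis for Reg3a, Reg3d, Reg3g, Reg4 and the sum of 12 intestinal epithelial markers in each of the 6 libraries. The marker sum lies at 24.3 to 46.5 TPM in 5 libraries and at 3985 TPM in polyI:C + AP mouse 2, while Reg3a is at 19166 and 22317 TPM in the mice of that group.

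Reg4, a more distant relative on chromosome 3 that is no member of the run, was listed at 0 in both saline mice and measured 15.6 and 12.7 TPM in the AP mice. In the polyI:C + AP mice it measured 0.374 TPM in mouse 1 and 32.1 TPM in mouse 2, the library with intestinal markers. The values in this group thus fell on both sides of the AP values, with a gap of 5.22 on the log2 scale. Of 8791 protein-coding genes with at least 10 TPM in that group, 71 (0.808%) had a gap as large.

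Markers of other cell types moved with the groups as well. The 10 ductal markers summed to 534 and 447 TPM in the saline mice, 2645 and 2606 TPM in the AP mice, and, after polyI:C, 2345 and 2529 TPM. Ductal sums were thus high in both caerulein groups, whereas Reg3a was high in the polyI:C + AP mice alone. The 12 macrophage markers summed to 761 and 491 TPM, 2825 and 3272 TPM, and 831 and 685 TPM in the same order, high in AP mice, where Reg3d was low. The 9 neutrophil markers with values, of 12 listed, summed to 17.9 and 5.80 TPM, 72.8 and 64.4 TPM, and 45.4 and 22.1 TPM. The 9 acinar markers with values summed to 48995 and 49072 TPM, 33548 and 24411 TPM, and 28430 and 33710 TPM. Of these 9 markers, 5 passed as lower in AP against saline mice, with a median log2 fold change of -1.23 beside 0.45 over all genes tested. In the comparison of polyI:C + AP with AP mice 3 of the 9 passed as higher, with a median of 0.73 beside 0.04, though the acinar sums of these groups overlapped. The median of these 9 markers thus moved in the same direction as Reg3d in both comparisons, though 6 of the 9 did not pass in the second. Against saline, 5 of the 9 were still lower after polyI:C. Their median log2 fold change was -1.1 there, where Reg3d stood at -0.27. Sums over the other lists ran from 1351 to 2392 TPM for islets, 674 to 1090 TPM for stroma, 104 to 177 TPM for endothelium and 7.58 to 53.4 TPM for lymphocytes. Of the 10 stroma markers, 4 passed as higher and 0 as lower in AP against saline mice, beside 18.2% and 4.03% of all genes tested. Their median log2 fold change was 1.02. In polyI:C + AP against saline mice, 3 passed as higher and 0 as lower, beside 16.9% and 2.97%. Islet sums were lowest in the polyI:C + AP mice, at 1351 and 1737 TPM. The part of these cell types in the Reg values was not tested.

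Genes with the profile most like each Reg gene were found by the root mean square difference of log2(TPM + 0.5) values, each centred on the gene's mean over the 6 libraries, among the 8492 protein-coding genes that reached a mean of 10 TPM. Nearest to Reg3a was Ddx60, an interferon-induced helicase, at 0.449, with 3.33 and 1.02 TPM in saline mice, 4.35 and 7.40 TPM in AP mice, and, after polyI:C, 25.1 and 37.1 TPM. The next 4 were Oasl2 (0.526), an oligoadenylate synthetase-like gene, Isg15 (0.586), a ubiquitin-like modifier, Gbp3 (0.604), a guanylate-binding protein, and B2m (0.608), the light chain of MHC class I. Isg15 was likewise highest after polyI:C, with 4.53 and 3.34 TPM, 6.81 and 13.2 TPM, and 65.6 and 73.8 TPM. Reg3d was nearest to Cckar, the cholecystokinin receptor through which caerulein acts on acinar cells, at 0.288, with 612 and 653 TPM, 166 and 184 TPM, and 517 and 594 TPM. After Cckar came Agtr1b (0.339), an angiotensin receptor, Aldh1a7 (0.347), an aldehyde dehydrogenase, Bhlha15 (0.350), a transcription factor of acinar cells, and Asb11 (0.365). Bhlha15 measured 391 and 326 TPM, 53.6 and 46.4 TPM, and 161 and 171 TPM, so that it stayed below its saline level after polyI:C by more than Reg3d did. For Reg3g the nearest genes were Car9 (0.575), a carbonic anhydrase, Lgals9 (0.598), a galectin, Lcn2 (0.639), a lipocalin that binds bacterial siderophores, Usp18 (0.644), which removes Isg15 from proteins, and Ifitm3 (0.697), an antiviral membrane protein. Car9 measured 5.58 and 1.84 TPM, 42.9 and 47.3 TPM, and 122 and 121 TPM, with saline mouse 1 above saline mouse 2 as for Reg3g. Between the members the difference was 0.867 for Reg3a and Reg3g, 1.87 for Reg3a and Reg3d and 2.54 for Reg3d and Reg3g, each larger than the difference from the member's own nearest genes. These likenesses over 6 libraries, which share depth and scaling, are a description.

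**Figure D4:**
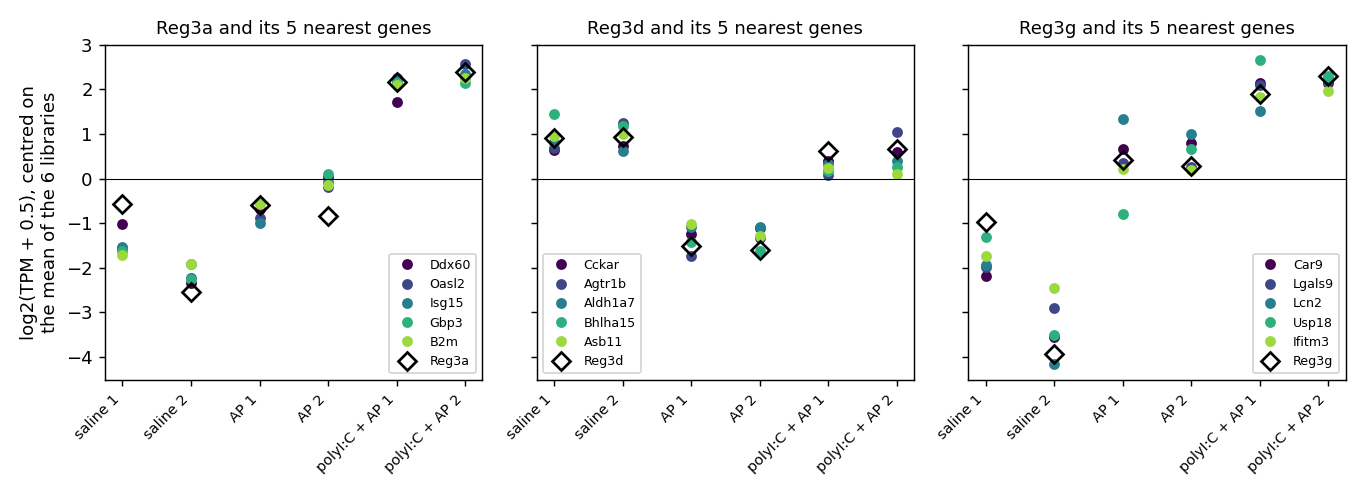
Log2(TPM + 0.5) centred on the mean of the 6 libraries for each Reg gene (open diamonds) and its 5 nearest genes (filled circles), by library. Reg3a and its nearest genes are highest in the polyI:C + AP mice, Reg3d and its nearest genes are lowest in the AP mice, and Reg3g with its nearest genes is lowest in saline mouse 2.

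Genes that are known to induce Reg genes, to carry such signals or to be targets of them were counted from 3 lists. The lists hold 47 genes, Reg4 among them, of which 41 had values and 35 were tested. In AP against saline mice 17 of the 35 rose and 5 fell, with a median log2 fold change of 1.06 beside 0.45 for all genes tested, of which 18.2% rose and 4.03% fell. After median-of-ratios scaling 12 rose and 6 fell, where all genes split into 1566 higher and 1220 lower in place of 3053 and 677. The calls of Cebpb, Ifngr1, Il17ra, Il17rc and Stat3 were lost under that scaling. Without AP mouse 2, 11 of the listed genes passed, and the calls of Bcl3, Cebpb, Il17ra, Il17rc, Il1b, Il22ra1, Il6ra, Lcn2, Reg4, Socs3 and Tnf were lost. Of these, Cebpb, Il17rc, Il1b, Il22ra1, Lcn2, Reg4 and Socs3 were lost without AP mouse 1 as well. Extl3 did not pass without saline mouse 1, nor did Cebpb, Il17rc, Il6ra and Reg4, and Il22ra1 and Reg4 did not pass without saline mouse 2.

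Of 13 inducing cytokines and hormones, the 3 tested were Lif, Tnf and Il1b, which rose in AP mice, and 2 of them, Lif and Tnf, were also higher in polyI:C + AP than in saline mice. Lif, a cytokine of the IL-6 family, was at 0.849 ± 0.685 TPM in saline, 10.2 ± 0.144 TPM in AP and 6.64 ± 1.10 TPM in polyI:C + AP mice (SD, n = 2). Tnf was at 0.225 ± 0.318, 5.43 ± 2.46 and 2.16 ± 0.749 TPM, and Il1b at 0.146 ± 0.206, 3.78 ± 1.12 and 1.33 ± 0.418 TPM. In polyI:C + AP against saline mice, Tnf passed under no alternative other than a pseudocount of 0.1. Il6 itself was not tested, as it lay between 0 and 0.371 TPM. Il22, Il17a, Il17f, Ifng and Gast were not analysed here.

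Of 16 receptor genes, 6 rose and 5 fell in AP mice. The largest rise was that of Osmr, the oncostatin M receptor, from 4.84 ± 1.01 TPM in saline to 30.0 ± 0.921 TPM in AP mice (log2 fold change 2.53, limma adjusted p 9.13e-05), with 23.3 ± 1.75 TPM after polyI:C. The log2 fold changes of the others that rose were 1.63 for Tnfrsf1a, a TNF receptor, 1.58 and 1.27 for the interferon gamma receptor genes Ifngr2 and Ifngr1, and 1.19 and 1.06 for the IL-17 receptor genes Il17rc and Il17ra. Cckar fell by 1.85 on the log2 scale, from 633 ± 29.0 to 175 ± 13.0 TPM, and was at 556 ± 54.5 TPM after polyI:C. It alone of the 35 listed genes passed the threshold in polyI:C + AP against AP mice (1.66, limma adjusted p 0.0037). This call was lost when AP mouse 1, AP mouse 2, polyI:C + AP mouse 1 or polyI:C + AP mouse 2 was left out. Lifr, the LIF receptor, fell by 1.71, Il22ra1, a chain of the IL-22 receptor, by 1.29, and Il6ra, the IL-6 receptor, by 1.10. Il22ra1 was at 197 ± 46.1, 79.5 ± 7.44 and 130 ± 41.6 TPM in saline, AP and polyI:C + AP mice. Lifr was also lower in polyI:C + AP than in saline mice, with a log2 fold change of -1.16, a call that was lost without any 1 library except polyI:C + AP mouse 1.

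Extl3, the gene of the receptor named above, fell in AP mice by 1.13 (SE 0.14, limma adjusted p 0.0013), from 272 ± 55.7 TPM in saline to 123 ± 8.07 TPM in AP mice. After polyI:C it was at 197 ± 2.59 TPM, a difference from AP mice of 0.68 with a limma adjusted p of 0.092.

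Among 18 transducers and target genes, 16 were tested, 8 rose in AP mice and the other 8 did not pass. Stat3, the transcription factor downstream of IL-6 and IL-22, rose from 24.8 ± 2.05 to 54.0 ± 0.122 TPM (log2 fold change 1.11, SE 0.10, limma adjusted p 0.0004) and was at 58.9 ± 3.95 TPM after polyI:C, where the difference from AP mice was 0.12 with a limma adjusted p of 0.67. Its target Socs3 rose from 13.5 ± 8.92 to 65.4 ± 3.24 TPM (2.40, SE 0.42, limma adjusted p 0.0045) and was at 84.0 ± 19.8 TPM after polyI:C, 0.34 above AP mice with a limma adjusted p of 0.79. Lcn2 rose by 4.21, Junb, an AP-1 subunit, by 4.12, Bcl3, an NF-kappaB cofactor, by 2.27, Tyk2, a Janus kinase, by 1.59 and the transcription factor gene Cebpb by 1.25. Lcn2 was at 0.920 ± 1.30, 19.7 ± 3.26 and 33.7 ± 12.3 TPM. Reg4 also passed, with both saline libraries listed at 0, though not with no filter or with a prior following the mean log2 value.

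In polyI:C + AP against AP mice, 1 of the 35 listed genes passed, as higher. At an unadjusted p no higher than 0.05 in limma, 3 of them had a 2-fold change, as had 728 of the 16814 genes tested. Of all genes tested, 0.440% passed as higher and 0.404% as lower. In polyI:C + AP against saline mice 14 were higher and 1 lower, beside 16.9% and 2.97% of all genes tested, and without polyI:C + AP mouse 2 the listed genes past the threshold numbered 11 in all. After median-of-ratios scaling 9 were higher and 4 lower, where all genes split into 1325 higher and 982 lower in place of 2838 and 500. Stat3 and Socs3 differed from AP mice by at most 0.34 on the log2 scale after polyI:C, where Reg3a differed by 2.99 and Reg3d by 2.20, values given side by side without a test of their difference.

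**Figure D5:**
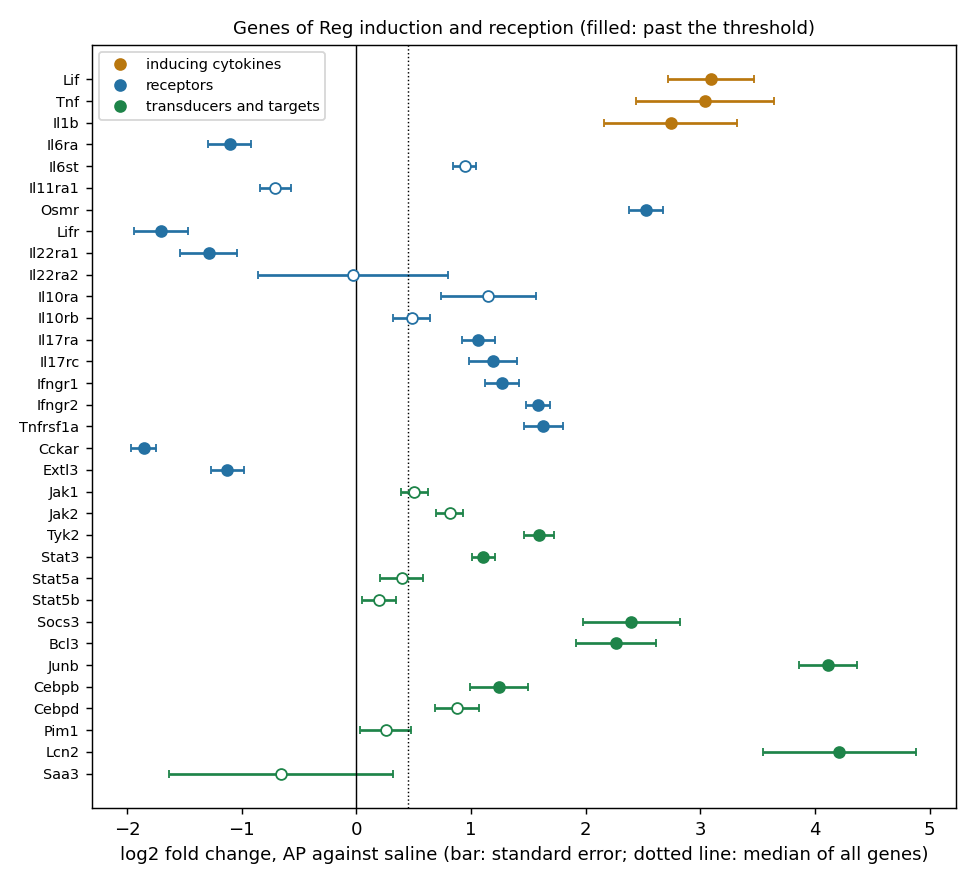
Log2 fold change in AP against saline mice for tested genes of the 3 lists, Reg4 not shown, with the standard error as bars, the median of all genes (0.45) as a dotted line and filled points past the threshold. Lif, Tnf, Il1b, Junb and Lcn2 lie furthest to the right, and the filled points of Cckar, Lifr, Il22ra1, Extl3 and Il6ra lie to the left of 0.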

How the data were processed

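RNA-sequencing values of 6 pancreases, 2 each of saline, AP and polyI:C + AP mice, were used as the authors deposited them, in TPM per gene and library. Before that, the authors used Trimmomatic for trimming, STAR for mapping to mm10 and htseq-count for counting. Tool versions and the step from counts to TPM are not given in the sources used here. The labels name both a ribosomal RNA depletion kit and a stranded mRNA kit, and place all libraries in the same lane. Only listed genes enter the TPM total, so TPM shares are shares of the genes listed.

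Of 22556 Ensembl identifiers, 22490 were found in GENCODE M21, which gave symbols and GRCm38 coordinates. The 6 Reg genes and the gene lists were chosen with earlier results of these data known. Groups came from the sample labels. A linear model was fitted with limma 3.58.1 (R 4.3.3) to log2(TPM + 0.5) of all 6 libraries for the 16814 genes whose mean reached 1 TPM. The variance prior followed log2(mean TPM × exon length + 1), with the median length for genes without one. Benjamini-Hochberg adjustment ran over all genes tested, and the threshold was an adjusted p of at most 0.05 and a change of at least 2-fold. An exact permutation test of 2 against 2 libraries has 0.333 as its smallest two-sided p, so p-values rest on limma's pooling of variance over genes. The fit was tested on simulated reads with 4-fold changes in the AP group, at a dispersion of 0.05. In AP against saline it recovered 136 of 194 changed genes, with 16 false calls among 16726 genes tested. In polyI:C + AP against AP it recovered 128 of 194, with 5 false calls. In polyI:C + AP against saline, where no gene was changed, 4 genes were called.

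Reads per library were estimated from the spacing of low TPM values multiplied by exon length. At a tolerance of 0.1, between 47.4% and 56.9% of values under 20 reads were near whole multiples, against 19.4% to 20.0% with lengths shuffled. The share is too low to recover whole reads, and no count test was run.

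Genes named are the Reg genes with values, genes of the 3 pathway lists past the threshold (with Reg4, Extl3, Stat3 and Socs3 in any case), protein-coding genes within 1 Mb of the Reg run, and the 5 genes nearest in profile to each Reg gene. The values of 1 gene of the pathway lists are not reported here, and its figure point is left out, though list counts include it. Of 28 acinar markers 9 had values, too few to test that list. Same-numbered libraries showed no shared deviation from the group means (correlations over genes of 0.0075, -0.0039 and 0.035), so the numbers do not pair the mice. Promoter windows came from RefSeq (GRCm38.p6), and coding sequences were aligned with Biopython 1.88. Alternatives were other pseudocounts, filters, scaling, prior and library sets, a block for the replicate number, and the omission of each library in turn.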

Additional observations from a re-analysis of the deposited data

How the results depend on the processing

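The log2 fold changes of the 3 Reg genes kept their direction under every alternative except 1: Reg3a in AP against saline mice ranged from -0.16 to 1.82 when each library was left out in turn, and passed the threshold only without saline mouse 1, at the upper end of that range. Under median-of-ratios scaling Reg3d moved to -2.91 in AP against saline and to -0.73 in polyI:C + AP against saline mice. The number of Reg genes that passed in AP against saline mice fell from 2 to 1 with no filter on low values, with median-of-ratios scaling, with a prior following the mean log2 value and with only the 4 libraries compared, Reg3g being the one lost, and ranged from 1 to 3 when each library was left out. In polyI:C + AP against AP mice it went from 1 to 2 with a mean of at least 5 TPM and with only the 4 libraries compared, and ranged from 0 to 2 with a library left out. For polyI:C + AP against saline mice, leaving out a library gave 0 to 2.

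Over all genes, 3730 passed in AP against saline mice, and 2399 to 3648 with a library left out. PolyI:C + AP against AP mice gave 142, 90 with no filter, 28 with a prior following the mean log2 value, and 0 to 80 with a library left out in limma, where 609 to 1067 genes had a 2-fold change and an unadjusted p no higher than 0.05. For polyI:C + AP against saline mice 3338 passed, and 2508 to 3336 with a library left out. Listed pathway genes past the threshold in these comparisons numbered 22, 1 and 15, and 11 to 22, 0 to 1 and 11 to 13 with a library left out. Where a group keeps 1 library, that library is assumed to vary like the others.

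With the replicate number as a block, 3646, 124 and 3287 genes passed in the 3 comparisons, with 2, 1 and 2 Reg genes, and the Reg calls were those without the block. The block changed 1 call among the pathway lists, that of Tnf in polyI:C + AP against saline mice, leaving 14 genes. The causes of these shifts were not tested.

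With 2 mice per group and no polyI:C group without AP, the data do not separate an effect of polyI:C alone from one in AP. The saline libraries are the shallowest, with Reg3g in saline mouse 2 resting on about 200 estimated reads.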

Other observations

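Without setting the intestinal markers aside, 111 genes were at least 32-fold higher in polyI:C + AP mouse 2 than in mouse 1. In the other direction, 28 genes were at least 32-fold higher in mouse 1. These folds were taken on the log2 scale of the limma fit. Not all 12 markers reached 32-fold, with Lgals4 at 177 TPM in mouse 2 and 11.8 TPM in mouse 1. Among the markers, Fabp2, a fatty acid binding protein, measured 1083 TPM in mouse 2 and 0.395 TPM in mouse 1, and Alpi, the intestinal alkaline phosphatase, measured 461 TPM and was listed at 0 in mouse 1. Vil1, the brush border protein villin, measured 162 and 3.43 TPM. Lgals4 and Lyz1, which also had values above 7 TPM in each of the other 5 libraries, measured 177 and 112 TPM in mouse 2.

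Osm, which encodes oncostatin M, and Il10 were under the mean of 1 TPM needed for a test. The AP mice had 1.69 and 1.70 TPM of Osm, the saline mice 0.675 and 0 TPM, and the polyI:C + AP mice 0.627 and 0.0996 TPM. Il10 was listed at 0 in both saline mice and measured 1.07 and 0.848 TPM in the AP mice, with 0.582 and 0.694 TPM in the polyI:C + AP mice. Both genes were chosen after their values were seen.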
